A study of Homo sapiens with 8 samples.

Results

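Selenoproteins are proteins that contain selenocysteine, an amino acid built like cysteine with selenium in place of sulfur. The 10 genes described here are selenoprotein genes other than those of the thioredoxin reductases: SELENOF, SELENOH, SELENOK, SELENOM, SELENON, SELENOO, SELENOS, SELENOT, SELENOW and MSRB1. They were chosen by symbol from the expression table, in which all 10 were present among 13036 listed genes, and all 10 passed the filter on low values that left 13028 genes for testing.

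RNA was sequenced from LN229-TAZ(4SA), an established human glioblastoma line whose name refers to TAZ, a co-activator in the Hippo pathway. The 4 groups had 2 libraries each: regular culture for 1 h, regular culture for 7 h, AF at 1 µM together with glucose deprivation for 1 h, and the same treatment for 7 h. All groups shared the same line, which the labels do not describe further, and no group of the parental line was analysed here. AF is given in the labels only by that abbreviation, in a series concerned with thioredoxin reductase inhibition. It was always applied together with the loss of glucose, so the effects of AF and of glucose loss cannot be told apart. Nothing in the labels says that the libraries of a group came from separate cultures, so p-values measure only the spread between libraries, which may be technical. The comparisons below ask how these genes changed in the early (1 h) and late (7 h) response to the combined treatment.

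Selenocysteine has no codon of its own. It is inserted at UGA, normally a stop codon, when a hairpin in the 3′ untranslated region of the mRNA, the SECIS element, recruits the binding protein SECISBP2, the elongation factor EEFSEC and a dedicated tRNA. The selenium in a catalytic selenocysteine is highly reactive, and thioredoxin reductase 1, encoded by TXNRD1, carries its own near its C-terminal end. Of the 10 genes, 6 encode residents of the endoplasmic reticulum (ER): SELENOK, SELENOS, SELENOF, SELENOM, SELENOT and SELENON. The other 4 act elsewhere: SELENOW in the cytosol, SELENOH in the nucleus, MSRB1 in the cytosol and nucleus, and SELENOO in mitochondria.

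The feature that defines the 10 genes is given here for each gene, because all of them carry it and because its place in the reading frame differs between them. Each line gives the selenocysteine codon of 1 GENCODE v29 transcript (GRCh38), TGA in capitals, with the bases around it read 5′ to 3′ on the coding strand.
SELENOK: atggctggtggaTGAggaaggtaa
SELENOS: tcatctggcggaTGAggctaa
SELENOF: gaagtttgtggaTGAaaattgggaagg
SELENOM: acctgcgggggaTGAcagctgaaccgc
SELENOT: atttgtgtttccTGAggttataggcgg
SELENON: gaccagtcctgcTGAggttcagggcgg
SELENOW: tattgtggcgctTGAggctacaagtcc
SELENOH: cattgcactagcTGAcgcgtctatggg
MSRB1: cagtcccgattcTGAatattcagcagc
SELENOO: ctgtgcgtgacaTGAtcttcgtaa

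In SELENOK the codon was number 92 of 94 (chr3:53885831-53885833), in SELENOS number 188 of 189 (chr15:101272777-101272779) and in SELENOO number 667 of 669 (chr22:50217358-50217360). The true stop codon, taa, therefore closes all 3 of those lines. In the other 7 genes the selenocysteine codon was further inside the frame, as in SELENOW at codon 13 of 87 (chr19:47780732-47780734), SELENOT at 49 of 195 and SELENOM at 48 of 145. In 5 genes, SELENOH, SELENOM, SELENOO, SELENOT and SELENOW, a cysteine codon stood 3 codons before the selenocysteine codon, and in SELENOF 1 stood 2 codons before. The SELENON transcript had 2 annotated selenocysteine codons, and the line shows the second, codon 462 of 590.

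Levels are CPM (reads scaled to a common library size) on the authors' scale, with the prior they had added removed. The listed genes held 27731776 to 45811965 reads in a library, which put the worth of a single read at 0.0209 to 0.0430 CPM. The members were covered by 322 reads (MSRB1) to 25688 reads (SELENON) in a library, far above the 3 reads that a count of 0 allows (0.0626 to 0.129 CPM). Libraries of the same group were not copies of each other: per degree of freedom, the chi-square between them was 2.79 to 3.62, where counting error alone gives about 1. The line's mesenchymal and neural genes VIM, CD44 and NES averaged from 871 to 3702 CPM over the groups, while GFAP, an astrocyte marker, lay between 0.495 and 1.14 CPM. Among markers of other cell types, CD68 (macrophages) lay between 11.5 and 21.6 CPM and VWF (endothelium) between 0.622 and 1.48 CPM, both with their highest mean in treated cells at 7 h. Several markers moved with the groups. OLIG2 averaged 15.7, 16.5, 6.83 and 16.2 CPM and PDGFRA 13.8, 14.4, 4.62 and 9.62 CPM in regular 1 h, treated 1 h, regular 7 h and treated 7 h cells, while SOX2 was highest in regular culture at 7 h (125 CPM, against 19.7, 40.7 and 20.9 CPM in the other groups in that order). In the order used for OLIG2, WWTR1 averaged 405, 388, 248 and 304 CPM and EGFR 58.5, 59.4, 99 and 73.8 CPM. The part of any of these genes in the results below was not tested. PTPRC, PECAM1, EPCAM, KRT20, HBB and ALB were looked up as well and are not among the listed genes, so they have no values here. The filter behind that list is not stated. In bulk RNA, fewer cells that express a gene and less RNA of it per cell cannot be told apart.

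At 7 h, 9 of the 10 genes differed between treated and regular cells at a limma adjusted p under 0.05. SELENOK, SELENOM, SELENOW, SELENOS, SELENOH and SELENOF were higher and SELENOT, SELENON and SELENOO were lower, while MSRB1 did not pass. Across all tested genes 40.5% were higher and 41.1% lower at this time, so a call by itself was the usual outcome at that time. The median log2 fold change of the members was 0.21, beside -0.007 over all tested genes. For all 10 genes the treated and regular libraries at 7 h did not overlap, as for 90.6% of all tested genes. At 1 h, 1 gene was higher (SELENOW) and 4 were lower (SELENOM, SELENOS, SELENOT and SELENOH), against 17.7% higher and 20.7% lower over all tested genes. The members' median was -0.013 beside 0.007. For 7 of the 10 genes the treated and regular libraries at 1 h did not overlap, as for 68.1% of all tested genes.

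**Figure D1:**
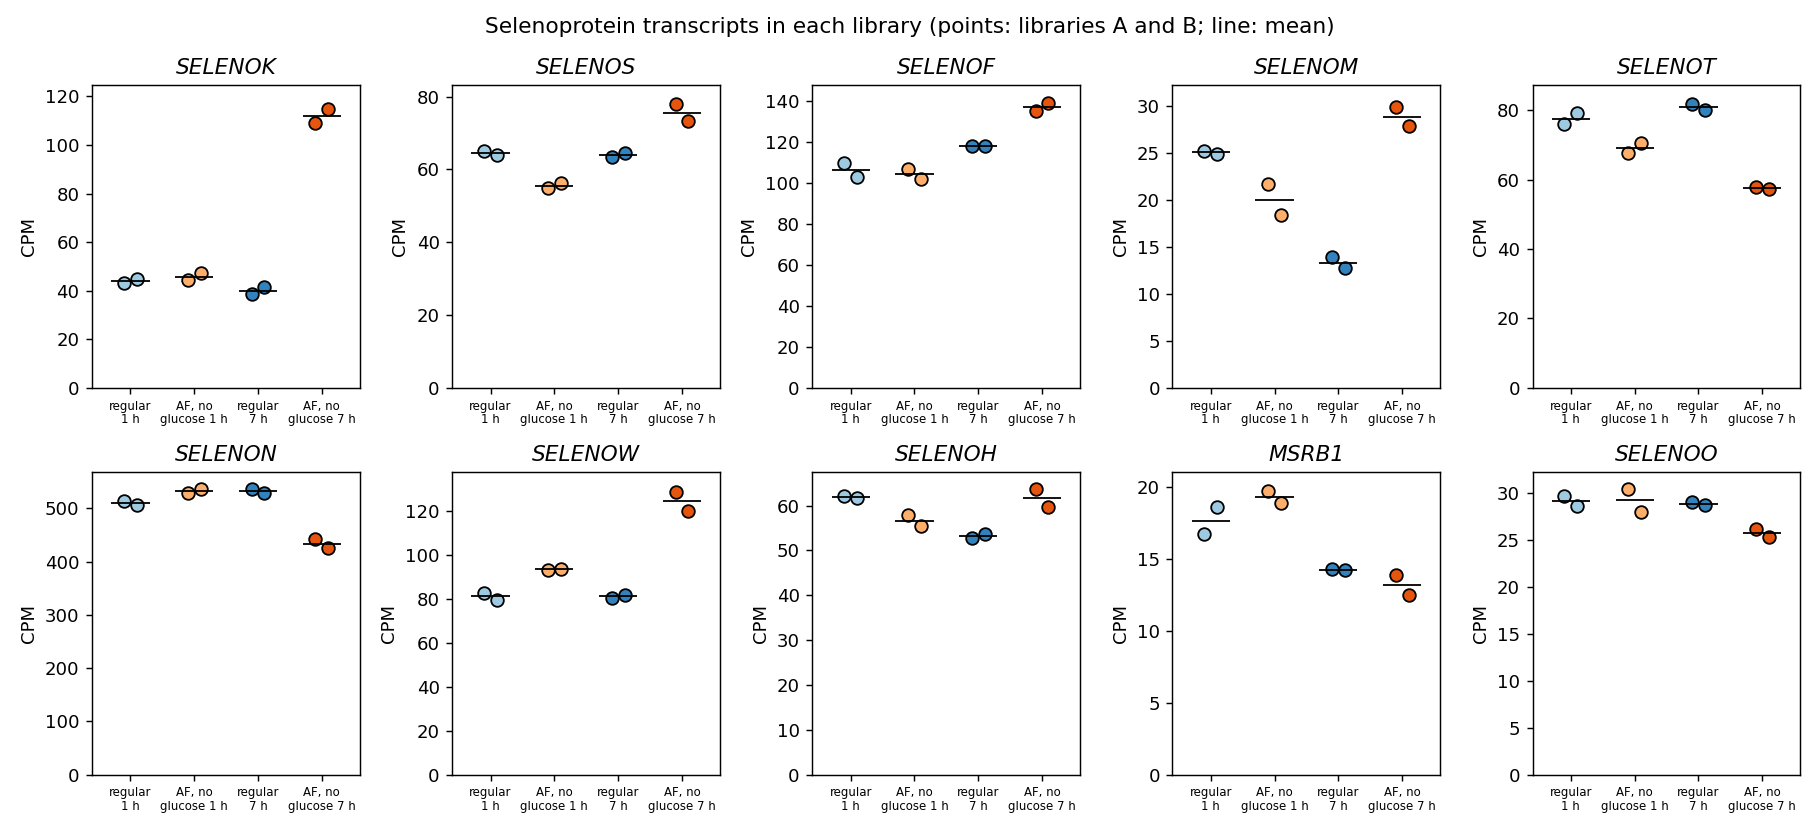
Level of each selenoprotein gene in CPM on the deposited scale (vertical axes, each starting at 0) in the 4 groups; points are the 2 libraries of a group and lines their mean. The SELENOK libraries of treated cells at 7 h (109 and 115 CPM) stand apart from the other 6 (38.7 to 47.4 CPM), and the SELENOM libraries of regular culture at 7 h (12.8 and 13.9 CPM) are the lowest of that gene.

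SELENOK encodes a small ER membrane protein that serves as cofactor of the palmitoyltransferase ZDHHC6 and takes part in the removal of misfolded ER proteins. The gene lies on the minus strand at chr3:53884417-53891859. It stood at 43.3 and 45 CPM in regular culture at 1 h, 44.3 and 47.4 CPM in treated cells at 1 h, 38.7 and 41.5 CPM in regular culture at 7 h, and 109 and 115 CPM in treated cells at 7 h. The treated 7 h libraries alone were high, and the 1 h groups overlapped. At 7 h the mean rose from 40.1 ± 1.98 to 112 ± 3.65 CPM (SD, n = 2), a 2.8-fold difference (limma log2 fold change 1.48, standard error, SE, 0.049, adjusted p = 5.71e-16), the largest of the 10 genes in this comparison. At 1 h the log2 fold change was 0.052 with a 95% interval of -0.051 to 0.155 (limma adjusted p = 0.44). The annotation names 3 pseudogene copies (SELENOKP1, SELENOKP2 and SELENOKP3), none of them a listed gene, so reads shared with them cannot be placed. The same limit holds for SELENOT, SELENOW, MSRB1 and SELENOO, which also have named pseudogenes that are not listed.

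SELENOS encodes an ER membrane protein that links derlins to the VCP ATPase during the export of misfolded proteins. The gene occupies the minus strand at chr15:101270809-101277485. Its libraries read 65 and 64.1 CPM in regular culture at 1 h, 54.8 and 56.3 CPM in treated cells at 1 h, 63.5 and 64.5 CPM in regular culture at 7 h, and 78.1 and 73.2 CPM in treated cells at 7 h. Treated cells were thus below every regular library at 1 h and above every regular library at 7 h on the deposited scale. The 1 h fall was 1.16-fold (limma log2 fold change -0.22, SE 0.043, adjusted p = 0.000445). The 7 h rise was 1.18-fold (limma log2 fold change 0.24, SE 0.043, adjusted p = 3.85e-05), but it became -0.08 (adjusted p = 0.0999) when libraries were scaled to the total of the listed genes, a scaling treated below.

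SELENOF encodes an ER luminal thioredoxin-like protein that binds the glycoprotein folding sensors UGGT1 and UGGT2. Its place is the minus strand at chr1:86862445-86914577. SELENOF read 110 and 103 CPM in regular culture at 1 h, 107 and 102 CPM in treated cells at 1 h, 118 in both regular libraries at 7 h, and 135 and 139 CPM in treated cells at 7 h. The 1 h groups overlapped (log2 fold change -0.028, 95% interval -0.112 to 0.056; limma adjusted p = 0.629), with a sign that turned under both other scalings. At 7 h the deposited scale gave a 1.16-fold rise (limma log2 fold change 0.21, SE 0.040, adjusted p = 7.32e-05), and scaling to the listed total gave -0.11 (adjusted p = 0.0214).

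SELENOM encodes a smaller ER luminal relative of SELENOF, abundant in brain. It lies on the minus strand at chr22:31104777-31107568. SELENOM stood at 25.3 and 24.9 CPM in regular culture at 1 h, 21.7 and 18.4 CPM in treated cells at 1 h, 13.9 and 12.8 CPM in regular culture at 7 h, and 29.9 and 27.9 CPM in treated cells at 7 h. The level in regular culture fell with time, from 25.1 ± 0.300 to 13.4 ± 0.749 CPM (SD, n = 2; limma log2 fold change -0.91, SE 0.075, adjusted p = 3.87e-09), the largest change of any member in regular culture. Treated cells at 7 h were 2.15-fold above regular culture of the same time (limma log2 fold change 1.11, SE 0.075, adjusted p = 4.86e-11). Set beside regular culture at 1 h, the same treated libraries (28.9 ± 1.42 CPM, SD, n = 2) were nearer in the mean, a pair of groups that was not tested. Marker genes OLIG2 (6.83 CPM), PDGFRA (4.62), WWTR1 (248), GFAP (0.495) and VWF (0.622) likewise had their lowest mean in regular culture at 7 h. The markers SOX2 (125 CPM), EGFR (99), VIM (3702) and CD44 (1143) had their highest mean there, and NES and CD68 neither. The part of these genes in the SELENOM values was not tested. At 1 h treated cells were 1.26-fold lower (limma log2 fold change -0.33, SE 0.075, adjusted p = 0.00167), a call that was lost without treated library B at 1 h (log2 fold change -0.21, adjusted p = 0.0616).

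SELENOT encodes an ER membrane-anchored thioredoxin-like enzyme. The gene occupies the plus strand at chr3:150603321-150630436, and 61 of its exon bases (1.51%) overlap SERP1 on the other strand, whose reads cannot be told apart in a library without strand marks. SELENOT read 75.9 and 79.3 CPM in regular culture at 1 h, 67.7 and 70.5 CPM in treated cells at 1 h, 81.9 and 80 CPM in regular culture at 7 h, and 57.9 and 57.4 CPM in treated cells at 7 h. Treated libraries were below regular ones at both times, without overlap. The fall was 1.12-fold at 1 h (limma log2 fold change -0.17, SE 0.041, adjusted p = 0.00311) and 1.4-fold at 7 h (limma log2 fold change -0.49, SE 0.041, adjusted p = 1.3e-09). The 7 h fall was the largest among the 10 genes on the deposited scale and when scaled to the listed total (-0.81). Under the latter the median of all tested genes was -0.32. After quantile normalization SELENOT (-0.46) fell less than SELENON (-0.55). Its sign was the same under these 3 scalings, but the 1 h call was lost when scaled to the listed total (-0.10, adjusted p = 0.0565).

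SELENON encodes an ER glycoprotein that senses luminal calcium and acts on the calcium pump SERCA, and is known for its role in muscle. Its place is the plus strand at chr1:25800193-25818221. It had the most reads of the 10 genes, with 513 and 507 CPM in regular culture at 1 h, 529 and 536 CPM in treated cells at 1 h, 536 and 528 CPM in regular culture at 7 h, and 442 and 425 CPM in treated cells at 7 h. The 7 h treated libraries were the only low pair. The fall at 7 h was 1.23-fold (limma log2 fold change -0.30, SE 0.030, adjusted p = 1.96e-08). It was larger after quantile normalization (-0.55) and when scaled to the listed total (-0.61). Scaling to the listed total also moved the median of all tested genes, to 0.0755 at 1 h and -0.32 at 7 h. At 1 h the log2 fold change of 0.062 did not pass (95% interval -0.001 to 0.125; limma adjusted p = 0.113), although it passed under quantile normalization (0.10, adjusted p = 0.0054) and under scaling to the listed total (0.13, adjusted p = 0.000945). Unlisted genes overlap 9.41% of its exon bases.

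SELENOW encodes a small cytosolic thioredoxin-fold protein, and its transcript is known to vary with selenium supply. It lies on the plus strand at chr19:47778703-47784682. SELENOW read 82.7 and 79.7 CPM in regular culture at 1 h, 93.4 and 93.8 CPM in treated cells at 1 h, 80.6 and 82 CPM in regular culture at 7 h, and 129 and 120 CPM in treated cells at 7 h. It was higher in treated cells at both times, without overlap and under every scaling run. The rise was 1.15-fold at 1 h (limma log2 fold change 0.21, SE 0.041, adjusted p = 0.000471) and 1.53-fold at 7 h (limma log2 fold change 0.61, SE 0.041, adjusted p = 3.74e-11). Regular culture did not differ detectably between the times (log2 fold change 0.002, 95% interval -0.084 to 0.088; limma adjusted p = 0.964).

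SELENOH encodes a nuclear thioredoxin-fold protein. The gene occupies the plus strand at chr11:57741491-57743550, where another annotated gene covers 12.1% of its exon bases. SELENOH read 62.1 and 61.6 CPM in regular culture at 1 h, 57.8 and 55.5 CPM in treated cells at 1 h, 52.7 and 53.6 CPM in regular culture at 7 h, and 63.8 and 59.6 CPM in treated cells at 7 h. Regular culture was 1.16-fold lower at 7 h than at 1 h (limma log2 fold change -0.22, SE 0.045, adjusted p = 0.000315), so the treated 7 h libraries lay around the level of regular culture at 1 h. Against regular culture of the same time they were 1.16-fold higher (limma log2 fold change 0.21, SE 0.045, adjusted p = 0.000228), which turned to -0.10 (adjusted p = 0.0381) when scaled to the listed total. The 1 h fall (limma log2 fold change -0.13, SE 0.045, adjusted p = 0.0299) did not pass under either other scaling, without the intensity trend, or without any 1 of 3 of the 1 h libraries (both regular ones and treated B).

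MSRB1 encodes the selenocysteine enzyme that reduces methionine-R-sulfoxide in proteins. Its place is the minus strand at chr16:1938229-1943199 and had the fewest reads of the 10 genes. MSRB1 read 16.7 and 18.6 CPM in regular culture at 1 h, 19.7 and 18.9 CPM in treated cells at 1 h, 14.3 and 14.2 CPM in regular culture at 7 h, and 13.9 and 12.5 CPM in treated cells at 7 h. The groups did not overlap at either time, yet neither difference passed: the log2 fold change was 0.13 at 1 h (95% interval -0.026 to 0.292; limma adjusted p = 0.183) and -0.11 at 7 h (95% interval -0.273 to 0.045; limma adjusted p = 0.171). Both passed when scaled to the listed total, at 0.20 (adjusted p = 0.0374) and -0.43 (adjusted p = 3.77e-05). The medians of all tested genes were then 0.0755 at 1 h and -0.32 at 7 h. MSRB1 fell with time in both cultures, by 0.31 on the log2 scale in regular culture (limma adjusted p = 0.00173) and by 0.55 in treated cells (limma adjusted p = 1.76e-06).

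SELENOO encodes a mitochondrial pseudokinase that transfers AMP to proteins. It lies on the plus strand at chr22:50201011-50217616, where another annotated gene covers 7.82% of its exon bases. SELENOO read 29.7 and 28.6 CPM in regular culture at 1 h, 30.5 and 28 CPM in treated cells at 1 h, 29.1 and 28.7 CPM in regular culture at 7 h, and 26.2 and 25.3 CPM in treated cells at 7 h. At 1 h the groups overlapped and the log2 fold change was 0.003 (95% interval -0.117 to 0.123; limma adjusted p = 0.978), with a sign that changed on leaving out 1 library. The 7 h fall was 1.12-fold (limma log2 fold change -0.17, SE 0.057, adjusted p = 0.0123). It was lost under quantile normalization (-0.085, adjusted p = 0.177), without regular library A at 7 h (adjusted p = 0.0671) and without treated library B at 7 h (adjusted p = 0.0647). When scaled to the listed total it was larger, at -0.48 (adjusted p = 2.96e-07), while the median of all tested genes was then -0.32.

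**Figure D2:**
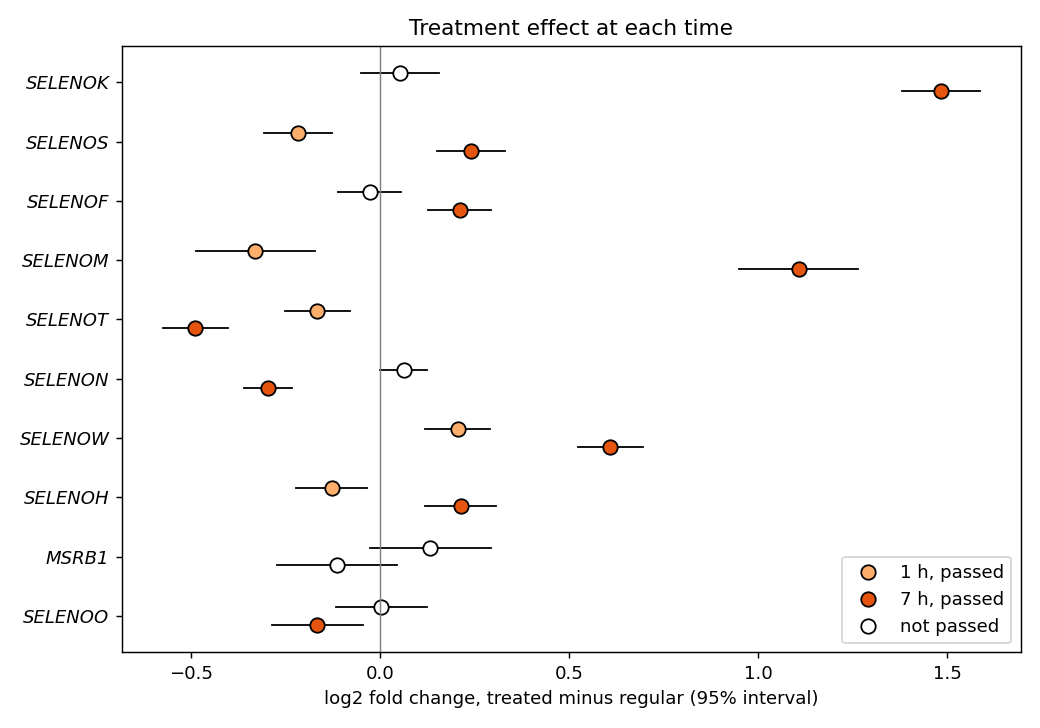
Log2 fold change of each gene, treated minus regular cells, at 1 h (light) and 7 h (dark), with 95% intervals from limma; filled points passed an adjusted p under 0.05 on the deposited scale. SELENOK (1.48) and SELENOM (1.11) lie farthest to the right at 7 h and SELENOT (-0.49) farthest to the left; the 7 h values of SELENOS, SELENOF and SELENOH turn negative when libraries are scaled to the listed total.

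Of the 6 ER residents, 4 were higher and 2 lower in treated cells at 7 h, with a median log2 fold change of 0.23, beside 40.5% higher, 41.1% lower and a median of -0.007 over all tested genes. Of the 4 genes that act elsewhere, 2 were higher (SELENOW and SELENOH), 1 lower (SELENOO) and 1 not called (MSRB1), with a median of 0.049. When scaled to the listed total, 2 of the ER residents were higher and 3 lower, and 1 of the other genes was higher and 3 lower. Under that scaling 82.3% of all tested genes were called, and 29.3% of those calls were higher. No test compared these small sets.

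The treatment effect itself differed between the times for 9 of the 10 genes (limma test of the difference, 7 h minus 1 h), against 73.7% of all tested genes. The gap was widest for SELENOM at 1.44 (95% interval 1.215 to 1.659; limma adjusted p = 3.24e-10) and SELENOK at 1.43 (95% interval 1.286 to 1.576; limma adjusted p = 5.07e-13), and those of SELENOS (0.46), SELENOW (0.40), SELENOH (0.34) and SELENOF (0.24) were also positive. SELENON (-0.36), SELENOT (-0.32) and MSRB1 (-0.25, adjusted p = 0.0451) had negative gaps, and SELENOO did not pass (-0.17, adjusted p = 0.0678). SELENOM was lower in treated cells at 1 h and higher at 7 h, while SELENOK passed at 7 h and not at 1 h. The calls for SELENOS (0.07) and SELENOW (0.02) were lost when scaled to the listed total. Under that scaling SELENOF (-0.15) and SELENOH (-0.04) turned and SELENOO passed (-0.55), while the median of all tested genes was -0.375. SELENOF was lost under quantile normalization (0.061), and SELENOO passed without treated library B at 1 h (-0.23, adjusted p = 0.0253). The MSRB1 call was lost under quantile normalization (-0.17, adjusted p = 0.17), without the intensity trend (adjusted p = 0.0707), and without any 1 of 6 libraries: both at 7 h in regular culture, both treated ones at 1 h, regular A at 1 h and treated B at 7 h.

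In regular culture alone, 5 of the 10 genes differed between 7 h and 1 h, against 61.5% of all tested genes. SELENOF was higher at 7 h (limma log2 fold change 0.15, SE 0.040, adjusted p = 0.00314), and SELENOM, MSRB1, SELENOH and SELENOK (-0.14; limma adjusted p = 0.0178) were lower. The count of 5 was lower without regular library B at 1 h, a fit for which the share of all tested genes was not computed. In treated cells all 10 genes differed between the times, against 77.6% of all tested genes. SELENOK (1.29), SELENOM (0.53), SELENOS (0.45), SELENOW (0.41), SELENOF (0.39) and SELENOH (0.12) were higher at 7 h. SELENON (-0.30), SELENOT (-0.26), SELENOO (-0.18) and MSRB1 (-0.55) were lower. This count was 6 when libraries were scaled to the listed total, under which 83% of all tested genes differed.

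Scaling between libraries bears on these values because treated cells at 7 h differed from the rest in how their reads were scaled. Relative to the reads in the listed genes, the library size used for the deposited CPM was largest in treated cells at 1 h, at a ratio of 1.09, and smallest in treated cells at 7 h, at ratios of 0.838 and 0.846. The 10 genes together took 0.105% to 0.108% of the listed reads in regular culture and 0.112% in treated cells at 1 h, but 0.0892% and 0.0909% in treated cells at 7 h. On the deposited scale their summed level was instead slightly higher in treated cells at 7 h, at 1054 and 1084 CPM, against 1012 to 1029 CPM in the other libraries. SELENON weighs heavily in these sums. It held 25688 of the 49302 reads of the 10 genes in regular library A at 7 h. In treated library A at 7 h it held 10262 of 25194.

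Scaling each library to the total of the listed genes moved the median log2 fold change of all tested genes at 7 h from -0.007 to -0.32, and the share of calls that were higher from 49.7% to 29.3%. Under that scaling 3 of the 10 genes were higher at 7 h and 6 were lower, while 82.3% of all tested genes were called. SELENOK, SELENOM and SELENOW remained among the higher ones, and SELENOF, SELENOH and SELENOS, with values of -0.11, -0.10 and -0.08, still lay above the shifted median. At 1 h the share of calls that were higher was 46.1% as deposited, 57.8% after quantile normalization and 68.4% when scaled to the listed total. For the difference of effects it went from 49.8% to 24.9%, and for treated cells over time from 47.5% to 20.8%, on scaling to the listed total.

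**Figure D3:**
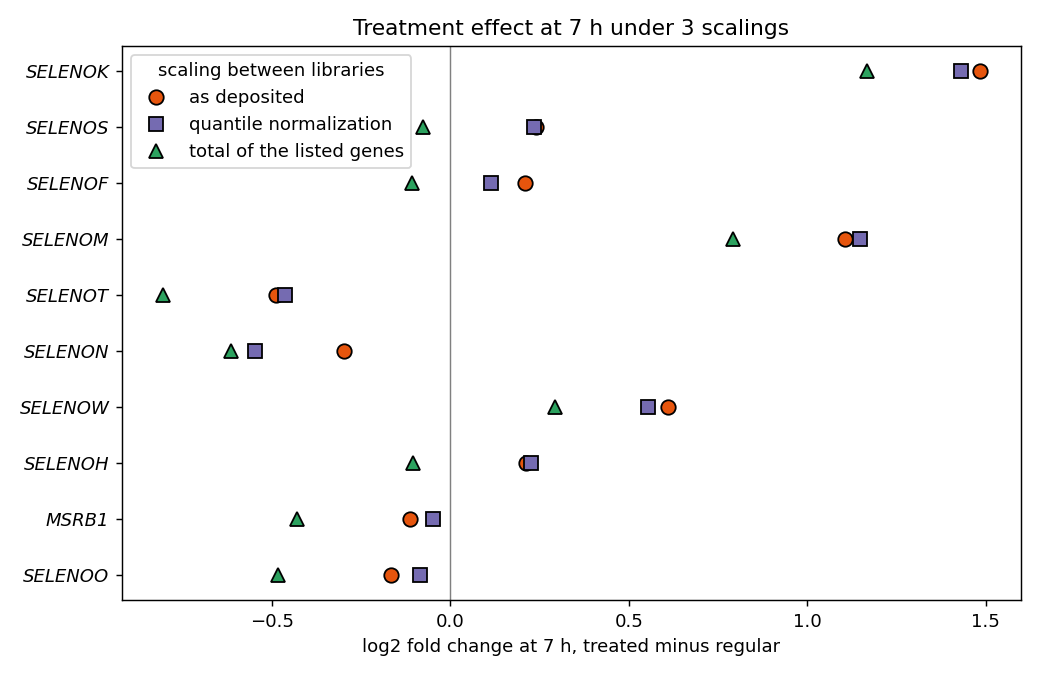
Log2 fold change at 7 h, treated minus regular cells, for each gene under 3 scalings between libraries (circles as deposited, squares after quantile normalization, triangles scaled to the total of the listed genes). The triangles lie to the left for every gene, and those of SELENOS, SELENOF and SELENOH cross 0.

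Levels of different genes were compared per kilobase of exon (union of GENCODE v29 basic exons). In regular culture at 1 h SELENON led with 117 ± 1.04 CPM per kb (SD, n = 2), followed by SELENOW at 75.8 ± 1.96, SELENOF at 56.7 ± 2.47, SELENOH at 36.3 ± 0.203, SELENOS at 31.4 ± 0.289 and SELENOK at 27.1 ± 0.753 CPM per kb. SELENOM at 23.1 ± 0.276, SELENOT at 19.2 ± 0.585, SELENOO at 12.6 ± 0.329 and MSRB1 at 9.87 ± 0.757 CPM per kb followed. The libraries of no neighbouring pair in that order overlapped. In treated cells at 1 h SELENOK and SELENOS overlapped, as did SELENOM and SELENOT. In regular culture at 7 h the overlapping neighbours were SELENOH with SELENOS and SELENOO with SELENOM. SELENOM had dropped to the ninth place there, at 12.3 ± 0.688 CPM per kb.

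In treated cells at 7 h the order per kilobase had changed at the top. SELENOW came first at 116 ± 6.05 CPM per kb (SD, n = 2), ahead of SELENON at 99.7 ± 2.62, SELENOF at 72.7 ± 1.58 and SELENOK at 68.6 ± 2.24 CPM per kb. SELENOS at 36.8 ± 1.69 and SELENOH at 36.2 ± 1.75 CPM per kb overlapped. The last 4 places went to SELENOM at 26.5 ± 1.3, SELENOT at 14.3 ± 0.0884, SELENOO at 11.1 ± 0.264 and MSRB1 at 7.37 ± 0.545 CPM per kb. These per-length levels take every annotated exon as used, which the files do not show.

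The position of the selenocysteine codon relative to exon junctions also differed between the genes. As background, a codon read as stop far before the last junction can expose an mRNA to nonsense-mediated decay. In 6 genes the codon lay more than 55 bases before the last junction of the transcript shown: SELENOT (470 bases), SELENOW (243), SELENON (216), SELENOH (136), SELENOM (135) and SELENOF (78). At 7 h 4 of these were higher and 2 lower, beside 40.5% higher and 41.1% lower over all tested genes. In SELENOK (5 bases), SELENOS (13) and MSRB1 (34) the codon lay closer, and in SELENOO it lay in the last exon. In this second set 2 were higher, 1 lower and 1 not called. The part of codon position in these changes was not tested.

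Of 13 factors of nonsense-mediated decay, all tested, 4 were higher and 7 lower in treated cells at 7 h, with a median log2 fold change of -0.18. Over all tested genes 40.5% were higher and 41.1% lower. UPF1, the helicase at the centre of the pathway, went from 176 to 103 CPM in the mean (limma log2 fold change -0.77, SE 0.033, adjusted p = 4.02e-14). UPF2 (-0.66) and RBM8A (-0.34) were the next largest falls by the same test. MAGOH (0.48), SMG8 (0.38) and UPF3B (0.15) were the largest rises, of which UPF3B turned to -0.17 and SMG8 no longer passed (0.065) when scaled to the listed total. That scaling left 1 factor higher and 11 lower, with 82.3% of all tested genes called and 29.3% of those calls higher. At 1 h 6 of the 13 were higher and 3 lower, beside 17.7% higher and 20.7% lower over all tested genes.

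Among the other human selenoprotein genes, 9 of 15 were tested. Of these, 5 were higher and 2 lower in treated cells at 7 h, with a median of 0.39. Over all tested genes 40.5% were higher and 41.1% lower. TXNRD1 read 402 and 407 CPM in regular culture at 1 h, 411 and 426 CPM in treated cells at 1 h, 354 and 347 CPM in regular culture at 7 h, and 2458 and 2488 CPM in treated cells at 7 h. Its log2 fold change at 7 h was 2.82 (SE 0.030; limma adjusted p = 9.85e-24), beyond that of any of the 10 genes. SEPHS2, which makes the selenophosphate used for selenocysteine and is itself a selenoprotein, went from 61.3 to 144 CPM in the mean (limma log2 fold change 1.23, SE 0.046, adjusted p = 3.91e-15). The glutathione peroxidase genes GPX3 (0.88) and GPX4 (0.39) and the phospholipid synthesis gene SELENOI (0.53) also rose. TXNRD3 (-1.04) and TXNRD2 (-0.46), which encode the testis-type and mitochondrial reductases, fell, and GPX1 (-0.025) and DIO2 (-0.24) did not pass. When scaled to the listed total, 5 were still higher, and 4 were lower, with GPX1 (-0.34) and DIO2 (-0.55) passing. That scaling called 82.3% of all tested genes and moved their median to -0.32. At 1 h SEPHS2 was higher and GPX4 and DIO2 were lower, beside 17.7% higher and 20.7% lower over all tested genes.

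Of 14 genes for selenium supply and selenocysteine insertion, 13 were tested, and 5 were higher and 5 lower at 7 h, with a median of 0.087. Over all tested genes 40.5% were higher and 41.1% lower. SARS1, the seryl-tRNA synthetase that also charges the selenocysteine tRNA with serine, went from 179 to 461 CPM in the mean (limma log2 fold change 1.36, SE 0.031, adjusted p = 1.91e-18). SEPHS2 (1.23), which stands in this list as well, and the ribosomal protein gene RPL30 (0.62), whose product binds SECIS elements, were the next largest rises. SEPHS1, a paralogue of SEPHS2 without selenocysteine, went from 88.3 to 42.7 CPM in the mean (limma log2 fold change -1.05, SE 0.040, adjusted p = 5.38e-15). LRP8 (-0.69), the receptor for selenoprotein P, and NCL (-0.56) were the next largest falls. SEPHS1 and SEPHS2 thus changed in opposite directions at 7 h, under every scaling run. The list counted 3 higher and 7 lower when scaled to the listed total. Under that scaling 82.3% of all tested genes were called, 29.3% of those calls higher. At 1 h 4 of the 13 were higher and 4 lower, beside 17.7% higher and 20.7% lower over all tested genes.

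**Figure D4:**
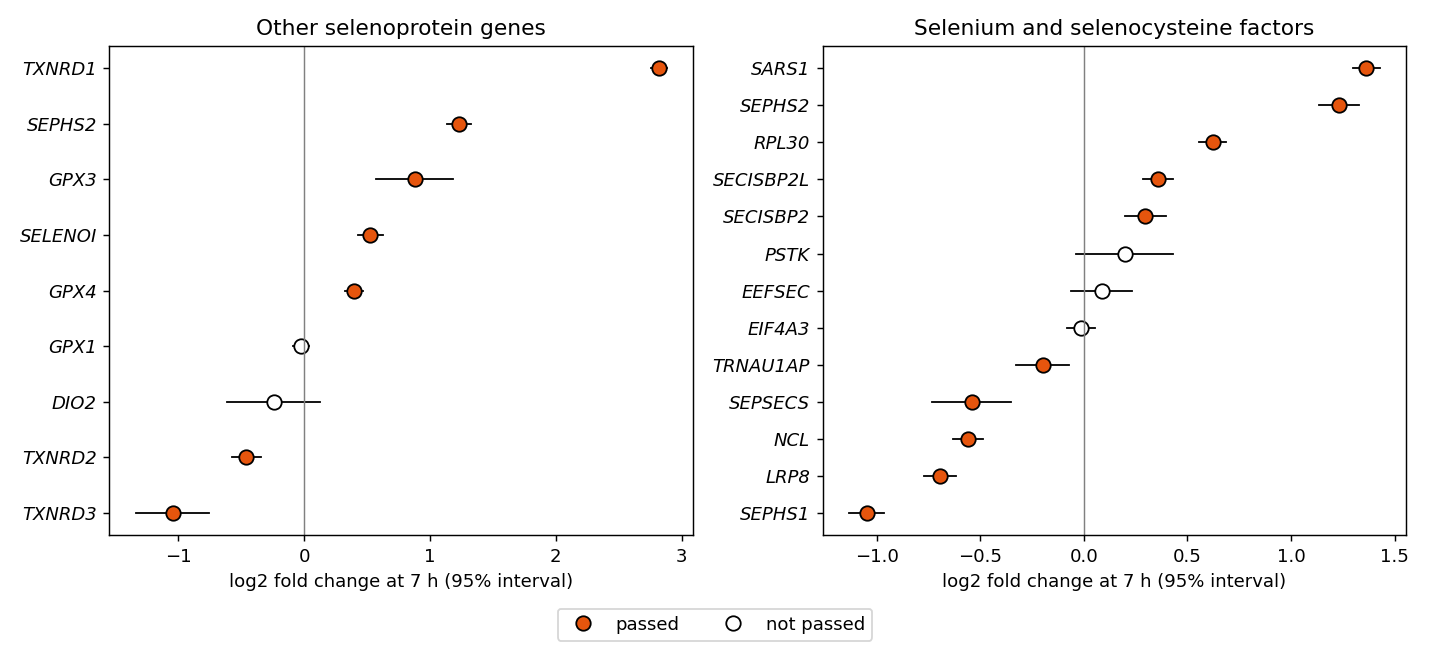
Log2 fold change at 7 h, treated minus regular cells, with 95% intervals, for the other selenoprotein genes tested (left) and the factors of selenium supply and selenocysteine insertion (right); filled points passed an adjusted p under 0.05. TXNRD1 (2.82) lies farthest to the right, and SEPHS1 (-1.05) and TXNRD3 (-1.04) farthest to the left of their panels; SEPHS2 stands in both.

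A further list held 25 genes of ER folding, ER-associated degradation and ER oxidation, with known partners of SELENOS, SELENOK, SELENOF and SELENON. Of these, 24 were tested, and 17 were higher and 4 lower at 7 h, with a median of 0.47. Over all tested genes 40.5% were higher and 41.1% lower. HERPUD1, a scaffold of ER-associated degradation, went from 21 to 252 CPM in the mean (limma log2 fold change 3.58, SE 0.045, adjusted p = 1.57e-22). The ER chaperone gene HSPA5 (2.20) and the ER oxidase gene ERO1B (1.96) were the next largest rises on the deposited scale. After quantile normalization HSPA5 stood at 1.21, below ERO1B at 1.99. ZDHHC6, the enzyme that works with SELENOK, went the other way from SELENOK, from 64.6 to 49.1 CPM in the mean (limma log2 fold change -0.39, SE 0.045, adjusted p = 1.19e-07). ERLEC1 (-0.34) and ERO1A (-0.19) were the next largest falls. The counts were 15 higher and 8 lower when scaled to the listed total, and 16 and 6 after quantile normalization. Of all tested genes, 82.3% and 81.1% were called under these scalings, with 29.3% and 48.2% of the calls higher. At 1 h 2 of the 24 were higher and 6 lower, beside 17.7% higher and 20.7% lower over all tested genes.

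The cysteine-based methionine sulfoxide reductases did not move together at 7 h. MSRB2, the mitochondrial enzyme, rose (log2 fold change 0.51; limma adjusted p = 0.00234), MSRB3, found in the ER and mitochondria, fell (-0.66; limma adjusted p = 5.4e-12), and MSRA did not pass (0.15; limma adjusted p = 0.0595). Scaled to the listed total, MSRB2 no longer passed (0.20, adjusted p = 0.191), and after quantile normalization MSRA passed (0.24, adjusted p = 0.00603).

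Genes with the pattern most like that of SELENOK and SELENOM, the members with a log2 fold change of at least 1, were ranked by Euclidean distance over the 8 libraries of centred log2 values among 10825 candidates. Nearest to SELENOK were GPBP1 (distance 0.110), RB1CC1 (0.137) and FAM107B (0.168). GPBP1 averaged 100, 104, 90.6 and 263 CPM in regular 1 h, treated 1 h, regular 7 h and treated 7 h cells, with its highest mean in the last group, as for SELENOK. Nearest to SELENOM were RPS6KA5 (0.161), ZFAND5 (0.261) and TENM1 (0.281). RPS6KA5 averaged 16.4, 14.4, 8.93 and 19.6 CPM in the same order, with the low point in regular culture at 7 h that SELENOM also had. These distances are descriptions, with no test.

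Promoter windows from RefSeq (GRCh38.p14, 250 bases before to 50 after the start) were present for 8 of the 10 genes. SELENOM and SELENOO had none. Motifs were searched on both strands, and the share of all 35116 windows that held each is given beside it. The ER stress response element, named ERSE, was in none of the 8 and in 0.0769% of all windows. Its CCACG part was in 4 (38.1% of all), CCAAT in 5 (34.6% of all), and CCAAT and CCACG are the ends of ERSE, so these overlap it by design. The amino acid response letters TGATGCAAT were in none (0.236% of all) and the looser TGATGNAAN, which contains them, in none (3.61% of all). The antioxidant response letters TGACNNNGC were in SELENOK at -117 and SELENON at -125 from the start (13.3% of all), and the heat shock letters GAANNTTC were in SELENOS at -163 (6.77% of all).

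The SELENOS window held the most CCACG copies of the 8, with 4, and is shown for that reason from the far end of the window up to the first base that any GENCODE transcript of the gene uses (235 bases, minus strand, chr15:101277501-101277735). Capitals mark CCACG at -105, -92 and -33, CCAAT read on the other strand at -44, and the heat shock letters at -163. The copy at -12 is left out of the stretch shown.
SELENOS promoter: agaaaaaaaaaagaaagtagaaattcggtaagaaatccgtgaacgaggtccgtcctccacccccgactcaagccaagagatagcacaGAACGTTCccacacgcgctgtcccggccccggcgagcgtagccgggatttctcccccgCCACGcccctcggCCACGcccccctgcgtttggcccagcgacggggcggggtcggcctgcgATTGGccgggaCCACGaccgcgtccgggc
SELENOK, with the largest rise, held none of the CCACG copies in its window. Its TGACNNNGC match lies downstream of the first window base that any GENCODE transcript of the gene uses. Such matches are descriptions of the letters alone.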

How the data were processed

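RNA-seq libraries were made with the SMART-Seq mRNA HT and Nextera XT kits, which do not mark strand, per the labels' protocols. Per the submitters' processing notes, the tools were HISAT2 and edgeR and the genome build was GRCh38. The sources used here state no versions, counting tool, annotation or filter. The values the authors deposited are log2 CPM with a prior of 0.0522 CPM, taken as the lowest value, which was read as 0 reads. With the prior removed, library sizes were fitted so that low values came out as whole reads. Of the lower values checked, 100% did so (tolerance 0.1 read). Higher values were rounded to whole reads without that check. Columns name the group and no replicate number, so libraries are called A and B without order. The labels name no batch.

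These values entered a limma model (limma 3.58.1, R 4.3.3) with 1 mean per group over 8 libraries, with an intensity trend (4 residual and 14.5 prior degrees of freedom). Genes with at least 1 CPM in 2 libraries were kept (8 removed). P-values were Benjamini-Hochberg adjusted over 13028 genes, and calls were made under 0.05. A planned pseudocount of 0.5 CPM was not added because the values were already logged. The prior stays in every log2 fold change and slightly shrinks those of low genes. The fitting procedure was tested on simulated data. In that simulation few genes changed and the library sizes were known, so it did not test the scaling between libraries.

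The text names all 10 genes and TXNRD1, and from each list of related genes up to 3 rises and 3 falls at 7 h among those that passed, or the whole list where it has 12 tested genes or fewer. The 10 genes and the lists were chosen with earlier results of these data known. Alternatives were another scaling (quantile, or to the listed total), no filter or 5 CPM, the pseudocount, no trend, voom weights on the recovered reads, only the groups compared, and leaving out each library.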

Additional observations from a re-analysis of the deposited data

Results flagged for a closer look

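The treatment effect differed between 1 h and 7 h by limma's test of the difference for 9 of the 10 genes, beside 73.7% of all tested genes. Each value is the log2 fold change at 7 h minus that at 1 h, on the deposited scale. The values were 1.4312 for SELENOK, 1.4370 for SELENOM, 0.4573 for SELENOS, 0.4042 for SELENOW, 0.3406 for SELENOH and 0.2380 for SELENOF, and -0.3580 for SELENON, -0.3221 for SELENOT and -0.2468 for MSRB1. The negative values mark a more negative effect at 7 h than at 1 h. When scaled to the listed total, 7 of the 10 genes passed, beside 77.5% of all tested genes. Under that scaling SELENOF (-0.1472) and SELENOH (-0.0445) turned, and SELENOS (0.0722) and SELENOW (0.0190) no longer passed. Groups of 2 libraries were too small for a check of single outlying libraries.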

How the results depend on the processing

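No paired analysis was possible because the columns of the table carry no replicate numbers. The difference of the effects has no value in a fit of only the 2 groups compared. Scaling to the listed total gave 3 genes higher and 2 lower at 1 h, and 3 higher and 6 lower at 7 h. It gave 6 that differed over time in treated cells. Of all tested genes, 44.2%, 82.3% and 83% were called in these comparisons under that scaling. Quantile normalization gave 2 higher at 1 h, where it called 41% of all tested genes in either direction. Leaving out 1 library gave 2 to 4 lower at 1 h and 3 to 5 that differed over time in regular culture. SELENOF at 1 h turned to 0.0528 (quantile) and 0.0409 (listed total), and ranged from -0.0722 to 0.0169 on leaving out 1 library. SELENOO at 1 h ranged from -0.0594 to 0.0649 in the same way. Under the listed total SELENOF turned to -0.1063, SELENOH to -0.1035 and SELENOS to -0.0763 at 7 h, and the differences of SELENOF to -0.1472 and of SELENOH to -0.0445. The cause was not tested. Over the 10 genes and TXNRD1, 169 of the alternative values at 7 h kept direction and side of the threshold. Of the rest, 3 turned, 3 lost the call and 1 gained it. At 1 h 157 kept both, while 6 turned, 8 lost the call and 5 gained it. For the difference 150 kept both, while 2 turned, 11 lost the call and 2 gained it. Most of these alternatives kept the deposited scaling. MSRB1 had the fewest reads of the 10 genes, 322 to 864 a library. Where 1 library is left out, the lone library of its group is assumed to vary like those of the other groups.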
